A study of Mus musculus with 24 samples.

Results

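DNA replication and S phase genes were followed in mouse liver across 3 genotypes and 4 treatments. The list holds 39 genes, grouped by what their products do in copying DNA. The list was drawn up with earlier results of these data known, in which S phase genes were higher with TCPOBOP in wild type. Chaf1a, the large subunit of the histone chaperone CAF-1, could not be matched to a probe set, which leaves 38 of the 12393 genes represented on the array. Each gene was read by the probe set with its highest mean over the 24 arrays.

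The livers came from 24 female mice of mixed C57BL/6x129Sv background, with 1 Affymetrix array for each mouse and 2 mice in each of 12 groups. The constitutive androstane receptor (CAR, gene Nr1i3) was the mouse one in wild-type mice and absent in knockout mice (CAR.KO, mCAR-/-). In human CAR mice (CAR.AH) the albumin promoter of the mouse, active mainly in hepatocytes, drove a transgene for the human receptor on the same mCAR-/- background. Knockout and human CAR mice thus shared the loss of the mouse receptor. The human CAR mice came from 2 breeding cycles with knockout mice. Ages and the number of founder lines of the transgene are not stated in the labels.

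Mice of each genotype were injected intraperitoneally for 3 days with corn oil, with phenobarbital (100 mg/kg daily), with CITCO (30 mg/kg daily) or with TCPOBOP. TCPOBOP was injected once, at 3 mg/kg on the first day, and corn oil on the other days. The interval from the last injection to the removal of the liver was 6 h. The labels describe TCPOBOP as a ligand of mouse CAR, CITCO as a ligand specific for human CAR, and phenobarbital as an agent that brings both receptors into the nucleus. Values are log2 expression, and a change is a difference of group means on that scale, given with its standard error (SE) from limma. A gene is called higher or lower where the Benjamini-Hochberg adjusted p of limma over 12393 genes is under 0.05. With 2 mice a group, the number of arrays limits the precision of every value.

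A cell that is about to copy its DNA first licenses its origins: the origin recognition complex (Orc genes), Cdc6 and Cdt1 load the ring of Mcm2 to Mcm7, and geminin (Gmnn) blocks reloading. In S phase the ring becomes the core of the helicase, primase and polymerases lay down new strands on the sliding clamp PCNA, and deoxynucleotide enzymes and histone chaperones supply the material. Most adult hepatocytes are quiescent, activators of mouse CAR are known to drive them into the cycle, and many of these genes are classical targets of E2F transcription factors, which bind short GC-rich letters near the start site.

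To show where such letters lie, the 250 bases before a start site are given for 6 genes from RefSeq (GRCm38.p6), 5′ to 3′ on the gene's own strand. Where a gene had several promoters, one with the E2F letters in these bases was taken if there was any. All 6 rose with TCPOBOP in wild type, as described further on. Capitals mark the E2F letters TTTCCCGC, TTTCGCGC, TTTGCCGC or TTTGGCGC and the CCAAT box, each on either strand. Mcm5, Mcm6 and Mcm7 encode subunits of the helicase ring and Cdc6 its loader, Pola1 the catalytic subunit of DNA polymerase alpha, and Rrm2 the small subunit of ribonucleotide reductase, shown as a promoter without the E2F letters.
Mcm5 promoter, chr8:75109259-75109508, plus strand: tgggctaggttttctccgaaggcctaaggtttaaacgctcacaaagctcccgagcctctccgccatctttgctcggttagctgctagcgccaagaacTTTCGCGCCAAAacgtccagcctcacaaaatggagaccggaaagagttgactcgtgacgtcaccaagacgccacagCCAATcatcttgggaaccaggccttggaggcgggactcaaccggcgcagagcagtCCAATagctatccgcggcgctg
Mcm6 promoter, chr1:128359706-128359955, minus strand: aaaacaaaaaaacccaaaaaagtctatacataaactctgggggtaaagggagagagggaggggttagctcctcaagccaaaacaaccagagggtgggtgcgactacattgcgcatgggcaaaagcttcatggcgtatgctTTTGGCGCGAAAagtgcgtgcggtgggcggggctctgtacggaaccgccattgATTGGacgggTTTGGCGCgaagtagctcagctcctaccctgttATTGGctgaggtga
Mcm7 promoter, chr5:138171884-138172133, minus strand: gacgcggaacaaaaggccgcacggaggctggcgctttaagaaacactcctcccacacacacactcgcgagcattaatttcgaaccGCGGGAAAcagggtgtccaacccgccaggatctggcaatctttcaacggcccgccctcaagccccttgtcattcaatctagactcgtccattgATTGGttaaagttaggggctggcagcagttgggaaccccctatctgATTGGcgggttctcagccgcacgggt
Cdc6 promoter, chr11:98907901-98908150, plus strand: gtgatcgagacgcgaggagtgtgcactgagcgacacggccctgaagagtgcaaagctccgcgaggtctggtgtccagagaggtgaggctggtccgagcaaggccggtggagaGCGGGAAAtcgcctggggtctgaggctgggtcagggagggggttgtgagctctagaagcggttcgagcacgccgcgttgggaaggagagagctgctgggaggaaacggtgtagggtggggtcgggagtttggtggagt
Pola1 promoter, chrX:93632156-93632405, minus strand: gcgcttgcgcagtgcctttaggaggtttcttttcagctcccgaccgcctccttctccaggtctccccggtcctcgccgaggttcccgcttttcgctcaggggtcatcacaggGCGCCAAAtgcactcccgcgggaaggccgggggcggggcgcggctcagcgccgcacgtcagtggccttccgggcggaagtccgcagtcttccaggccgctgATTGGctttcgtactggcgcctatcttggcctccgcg
Rrm2 promoter, chr12:24708004-24708253, plus strand: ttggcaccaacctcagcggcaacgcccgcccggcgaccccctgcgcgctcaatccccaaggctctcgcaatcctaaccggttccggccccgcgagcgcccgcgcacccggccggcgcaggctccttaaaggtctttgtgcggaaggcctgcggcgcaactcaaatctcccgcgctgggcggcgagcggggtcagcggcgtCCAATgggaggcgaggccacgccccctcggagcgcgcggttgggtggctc
The Mcm6 promoter held the E2F letters at 3 places, beginning at -110, -106 and -47 from the start site, of which the first and the second overlap on opposite strands. The Mcm5 promoter had a like overlapping pair at -153 and -149. Mcm7 had the letters at -165, and Cdc6 and Pola1 at -138. Another Mcm7 promoter held no E2F letters. The starts used for Mcm5, Mcm7, Cdc6 and Pola1 lie inside the RefSeq bounds of these genes. Rrm2 had a CCAAT box at -50.

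Promoters of 250 bases before to 50 bases after the start were found for 33 of the 38 genes, 38 promoters in all. The E2F letters stood in 12 of these 38 promoters (31.6%), against 744 of all 32851 mouse promoters in the table (2.26%) and 607 of 21262 promoters of protein-coding genes (2.85%). The CCAAT box stood in 20 (52.6%), against 37.4% of all promoters and 38.2% of protein-coding ones. Of the 24 promoters of genes called higher with TCPOBOP in wild type, 9 held the E2F letters (37.5%), and of the 14 of genes not called 3 did (21.4%). A match is a description of letters and not a measured binding site, and no binding was measured here.

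In the check of the genotypes, Nr1i3 lay between 6.84 and 8.0 on wild-type arrays and was lower by 2.37 in knockout (adjusted p = 3.48e-06) and by 2.26 in human CAR mice (adjusted p = 1.40e-05), both on corn oil in the limma fit. Whether its probe set lies in the deleted part is not known, and the transcript of the human transgene was not analysed. Cyp2b10, a classical CAR target, rose in wild type with TCPOBOP (7.42), phenobarbital (7.03) and CITCO (3.23), and in human CAR mice with CITCO (3.01) and phenobarbital (2.78). The 7 hepatocyte markers had array means from 12.2 to 12.6. Arrays of phenobarbital-treated knockout replicate 2 and human CAR replicate 1 stood apart from the other 22 on the main axis of variation among arrays. They scored 29.9 and 48.6 on it, and the others from -17.4 to 12.0. Their median correlations to the rest were the lowest, 0.980 and 0.970. Those of the wild-type TCPOBOP arrays came next, at 0.9825 and 0.9811. Results below that rest on the 2 phenobarbital arrays are given with and without them where a call changed.

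Some of the 38 genes were dim in resting liver. A level was counted as dim where it lay below the 40th percentile of its array, between 4.93 and 5.08. By this definition 40% of the probe sets of each array are dim. The share of all genes that were dim was not taken, so the counts below are not read as particular to the 38 genes. Of the 38 genes, 16 were dim on both corn oil arrays of wild type, 13 were above the limit on all 24 arrays, and Orc6, Cdc6, Rfc4, Tyms, Ccne2 and Chek1 were dim on all 24. A filter on low values would have kept some of them only through the group in which they were high, so all 38 were left in the fit.

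Most of the 38 listed genes were higher with TCPOBOP in wild type. This was the only one of the 9 ligand comparisons with corn oil in which any of them was called. The list was drawn up knowing that S phase genes were higher here. The shares below thus describe the listed genes and are no independent test. Among 39 other replication genes, given further on, fewer were called. Of the 38 genes 23 were called higher and 0 lower, against 4.76% of all genes called, and 2.81% called higher. Their median change was 0.54 and 36 of 38 changes were positive, beside a median of 0.03 over all genes. Both TCPOBOP livers lay above both corn oil livers for 35 of the 38 genes, against 27.6% of all genes. In 24 of the 38, the 2 TCPOBOP livers of wild type were the highest 2 of all 24 livers, against 3.42% of all genes. In a bulk liver sample fewer cells of a type and less RNA per cell cannot be told apart, and the same holds for a rise.

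**Figure D1:**
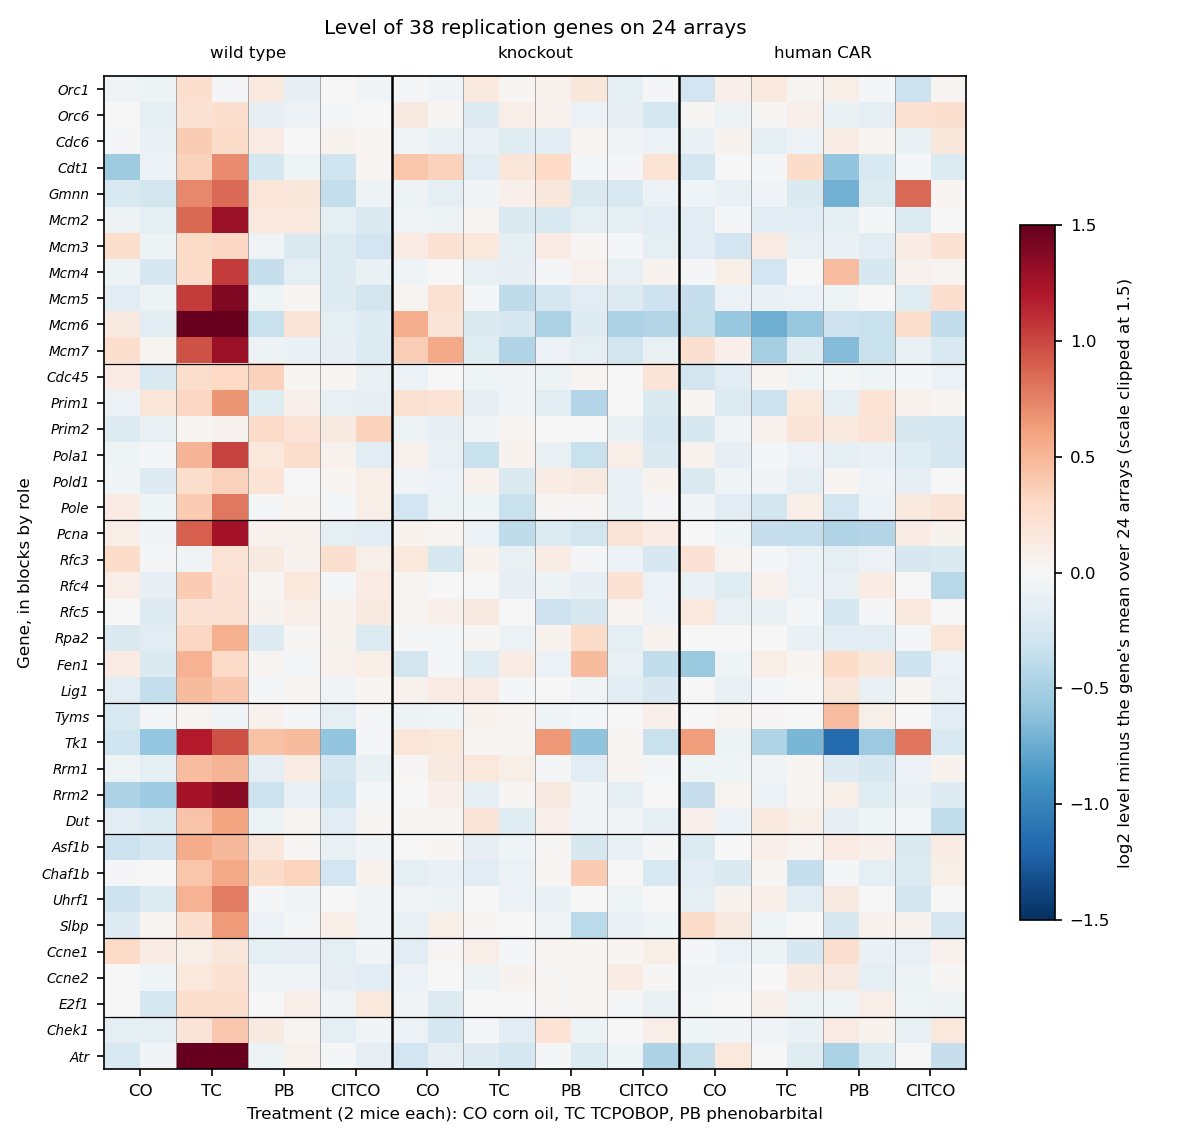
Level of each of 38 replication genes (rows, in blocks by role) on each of 24 arrays (columns, 2 mice for each treatment within 3 genotypes), as log2 level minus the gene's mean over the 24 arrays, with the colour scale clipped at 1.5. The 2 columns of wild-type TCPOBOP livers are red in most rows, and they are the highest 2 of 24 in 24 rows.

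The mean level over the 38 genes was 5.71 and 5.87 in the 2 TCPOBOP livers of wild type and between 5.07 and 5.25 in the other 22 livers. The highest of the 22 was a phenobarbital-treated wild-type liver. The number of genes above the dim limit was 28 and 31 in the 2 livers and 17 to 23 in the others. Gmnn, Mcm2, Mcm5, Pola1, Rpa2, Rrm2 and Atr went from dim in both corn oil livers to above the limit in both TCPOBOP livers. Mcm2, Mcm5 and Atr were above it in those 2 livers and in no other. The share of all genes was not taken for any of these counts against the limit, so they cannot be set beside it.

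Among the 11 licensing genes 8 were called higher, with a median change of 0.84, and 5 of the 8 were subunits of the helicase ring. Mcm6 measured 5.70 and 5.41 in the 2 corn oil livers and 7.59 and 8.33 in the 2 TCPOBOP livers, a rise of 2.40 (SE 0.23, limma adjusted p = 3.95e-06). This was the largest change of any of the 38 genes. Mcm5 went from 4.06 and 4.15 to 5.27 and 5.61, a rise of 1.33 (SE 0.15, limma adjusted p = 2.78e-05). Mcm2 went from 4.76 and 4.68 to 5.69 and 6.13, a rise of 1.19 (SE 0.12, limma adjusted p = 1.22e-05). For each of these 3 genes the groups stood well apart, and the second TCPOBOP liver was the higher one.

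Mcm7 started from a brighter level, 6.66 and 6.44 on corn oil, and measured 7.37 and 7.71 with TCPOBOP (0.99, SE 0.15, limma adjusted p = 0.000458). Mcm4 rose by 0.82 (adjusted p = 0.0309), but its livers differed: 5.16 and 4.98 on corn oil against 5.5 and 6.27. Its change was called in 1 of the 4 fits that left out a liver, that without the first TCPOBOP liver, and ran from 0.43 to 1.2 over the 4. Mcm3, at 5.47 and 5.12 against 5.49 and 5.51, had a change of 0.20 (SE 0.12, adjusted p = 0.417) on the chosen probe set and was the 1 ring subunit not called there. Another Mcm3 probe set was called in a fit of all probe sets, as given further on.

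The loaders Cdt1 and Cdc6 and their inhibitor were called too. Gmnn, the inhibitor of reloading, measured 4.57 and 4.52 on corn oil and 5.52 and 5.65 with TCPOBOP, a rise of 1.04 (adjusted p = 0.00573) that was lost without the second corn oil or the second TCPOBOP liver. Cdt1 measured 4.98 and 5.42 against 5.86 and 6.22, a rise of 0.84 (adjusted p = 0.0164) that was lost without the first corn oil or the second TCPOBOP liver. Cdc6 was dim throughout, at 2.76 and 2.67 against 3.16 and 3.05, and its rise of 0.39 (adjusted p = 0.0393) was lost when any of the 4 livers was left out. The origin recognition genes were not called: Orc1 changed by 0.18 and Orc6 by 0.30, with adjusted p of 0.532 and 0.110.

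Of the 6 genes of origin firing and strand synthesis 3 were called, with a median change of 0.43 over the 6. Pola1 went from 4.77 and 4.83 to 5.35 and 5.86, a rise of 0.80 (SE 0.16, limma adjusted p = 0.00678). Pole, the catalytic subunit of the leading-strand polymerase, rose by 0.56 from 5.24 and 5.05 to 5.5 and 5.91 (adjusted p = 0.0347). Pold1, that of polymerase delta, rose by 0.42 from 5.79 and 5.64 to 6.09 and 6.18 (adjusted p = 0.0347). All 3 calls were lost without the second TCPOBOP liver or the first corn oil liver, that of Pole also without the second corn oil liver, and that of Pold1 with any of the 4 left out. The primase genes Prim1 (0.43) and Prim2 (0.19) and the helicase cofactor Cdc45 (0.34) were positive and not called, with adjusted p between 0.141 and 0.320.

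Of the 7 genes of the clamp, its loader and the lagging strand 3 were called. Pcna, the sliding clamp, measured 8.22 and 8.08 in the corn oil livers and 9.01 and 9.37 in the TCPOBOP livers, a rise of 1.04 (SE 0.11, limma adjusted p = 1.53e-05). Lig1, the ligase that joins Okazaki fragments, rose by 0.69 (SE 0.10, limma adjusted p = 0.000487) from 5.28 and 5.09 to 5.92 and 5.84. Rpa2, a subunit of the single-strand binding complex, rose by 0.61 (adjusted p = 0.00532) from 4.65 and 4.72 to 5.18 and 5.41, and without the second TCPOBOP liver or the first corn oil liver it was not called. The flap nuclease Fen1 changed by 0.45 (adjusted p = 0.220), with 8.25 and 7.91 against 8.65 and 8.41. The clamp loader subunits Rfc4 and Rfc5 changed by 0.31 and 0.32 and Rfc3 by -0.06, and none of these was called on the chosen probe sets. Another Rfc4 probe set was called in the fit of all probe sets, so whether the loader is counted depends on the probe set read.

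Of the 5 genes of nucleotide supply 4 were called, with a median change of 0.69. Rrm2 had the smallest p of the 38 genes: it measured 4.78 and 4.70 on corn oil and 6.49 and 6.60 with TCPOBOP, a rise of 1.81 (SE 0.14, limma adjusted p = 3.27e-07). Its partner Rrm1, the large subunit, rose by 0.59 (SE 0.10, limma adjusted p = 0.00153) from 5.63 and 5.54 to 6.15 and 6.20. Tk1, the salvage enzyme thymidine kinase, rose by 1.51, but with an SE of 0.36 (limma adjusted p = 0.0199). It measured 6.66 and 6.39 against 8.16 and 7.92, and the call was lost when any of the 4 livers was left out. Dut, which removes dUTP, rose by 0.69 (adjusted p = 0.00391) from 4.47 and 4.42 to 5.05 and 5.22. Tyms, thymidylate synthase, was dim and changed by 0.12 (adjusted p = 0.619).

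The histone chaperone Asf1b rose by 0.81 (SE 0.11, limma adjusted p = 0.000315), from 5.51 and 5.58 on corn oil to 6.39 and 6.31. Uhrf1, which carries DNA methylation over to the new strand, rose by 0.90 (SE 0.12, limma adjusted p = 0.000124), from 3.93 and 4.03 to 4.76 and 5.00, and stayed dim in the first TCPOBOP liver. Chaf1b, a CAF-1 subunit, and Slbp, which binds histone mRNA, changed by 0.50 and 0.52 and were not called (adjusted p = 0.0656 and 0.0639).

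Among the regulators, E2f1 rose by 0.40 (adjusted p = 0.0368) from 5.62 and 5.36 to 5.89 and 5.89, and was called in 1 of the 4 fits that left out a liver. Ccne1 and Ccne2, the cyclins E that drive the entry into S phase, changed by -0.07 and 0.22 and were not called. Both checkpoint kinases were called. Atr, which senses stalled forks, measured 4.6 and 4.78 on corn oil and 6.45 and 6.68 with TCPOBOP, a rise of 1.88 (SE 0.17, limma adjusted p = 2.54e-06). Atr was read by 1 probe set, so no other probe set bears on it. Chek1, its target, was dim on all arrays, at 4.08 and 4.06 against 4.41 and 4.62, and rose by 0.44 (adjusted p = 0.0327), a call that held in 1 of those 4 fits.

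Of the 23 calls, 11 held with any 1 of the 4 livers left out: Mcm2, Mcm5, Mcm6, Mcm7, Pcna, Lig1, Rrm1, Rrm2, Asf1b, Uhrf1 and Atr. The count of genes called was 14 without the first corn oil liver, 15 without the second and 11 without the second TCPOBOP liver. These fits take the spread of the lone remaining liver from the other groups. The other 12 calls were lost without at least 1 of the 4 livers. Changes ran from 0.39 to 2.40 among the 23, and 8 were at least 1 on the log2 scale, a doubling.

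Other probe sets of these genes were read in a limma fit of 22626 probe sets, a step added after the data were seen. It held 69 probe sets of the 38 genes, of which 35 were called higher and 0 lower. Of the 31 probe sets not chosen above, 12 were called, and of the 19 that belong to the 23 called genes 16 were positive and 9 called. The share called over all probe sets was not taken, so these counts cannot be set against it. Mcm3 (0.68, adjusted p = 0.000538), Rfc4 (0.56, adjusted p = 0.00608) and Fen1 (0.54, adjusted p = 0.0261) each had a called probe set here and not before. The other 2 probe sets of Rrm2 rose by 2.72 and 2.47, more than the chosen one. All 4 probe sets of Mcm7 were called, with rises from 0.38 to 0.99. Some disagreed: another Dut probe set changed by 0.00, the third of Cdt1 by -0.05, and 3 others of Chek1 by -0.14 to 0.11. The second probe sets of E2f1 (0.16, adjusted p = 0.645) and Pold1 (0.19, adjusted p = 0.601) were not called. Nor were those of Mcm4 (0.27, limma adjusted p = 0.377) and Rpa2 (0.40, limma adjusted p = 0.0517). The calls of Dut, Cdt1, Chek1, E2f1, Pold1, Mcm4 and Rpa2 thus depend on which probe set is read, as do those of Mcm3, Rfc4 and Fen1.

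In knockout livers TCPOBOP left 0 of the 38 genes called, against 0.0646% of all genes. At an unadjusted limma p under 0.05, 0 were higher and 4 lower. Such unadjusted counts are given here and below without the share over all genes, so they cannot be set against it. The smallest p was that of Mcm7, with 6.78 and 6.97 on corn oil and 6.22 and 5.95 with TCPOBOP (-0.79, adjusted p = 0.0655). Mcm6 (-0.60, adjusted p = 0.378) and Pcna (-0.28, adjusted p = 0.390) followed. In human CAR livers 0 were called as well, as were 0% of all genes. At an unadjusted limma p under 0.05, 1 was higher and 3 lower. The smallest p were again that of Mcm7 (-0.50, adjusted p = 0.607), then Pcna (-0.31) and Prim2 (0.27), both with adjusted p = 0.693. Over the 23 genes called in wild type the TCPOBOP changes in knockout had a median of -0.04 and ran from -0.79 to 0.12, and in human CAR mice the median was 0.01 and the range -0.84 to 0.24.

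**Figure D2:**
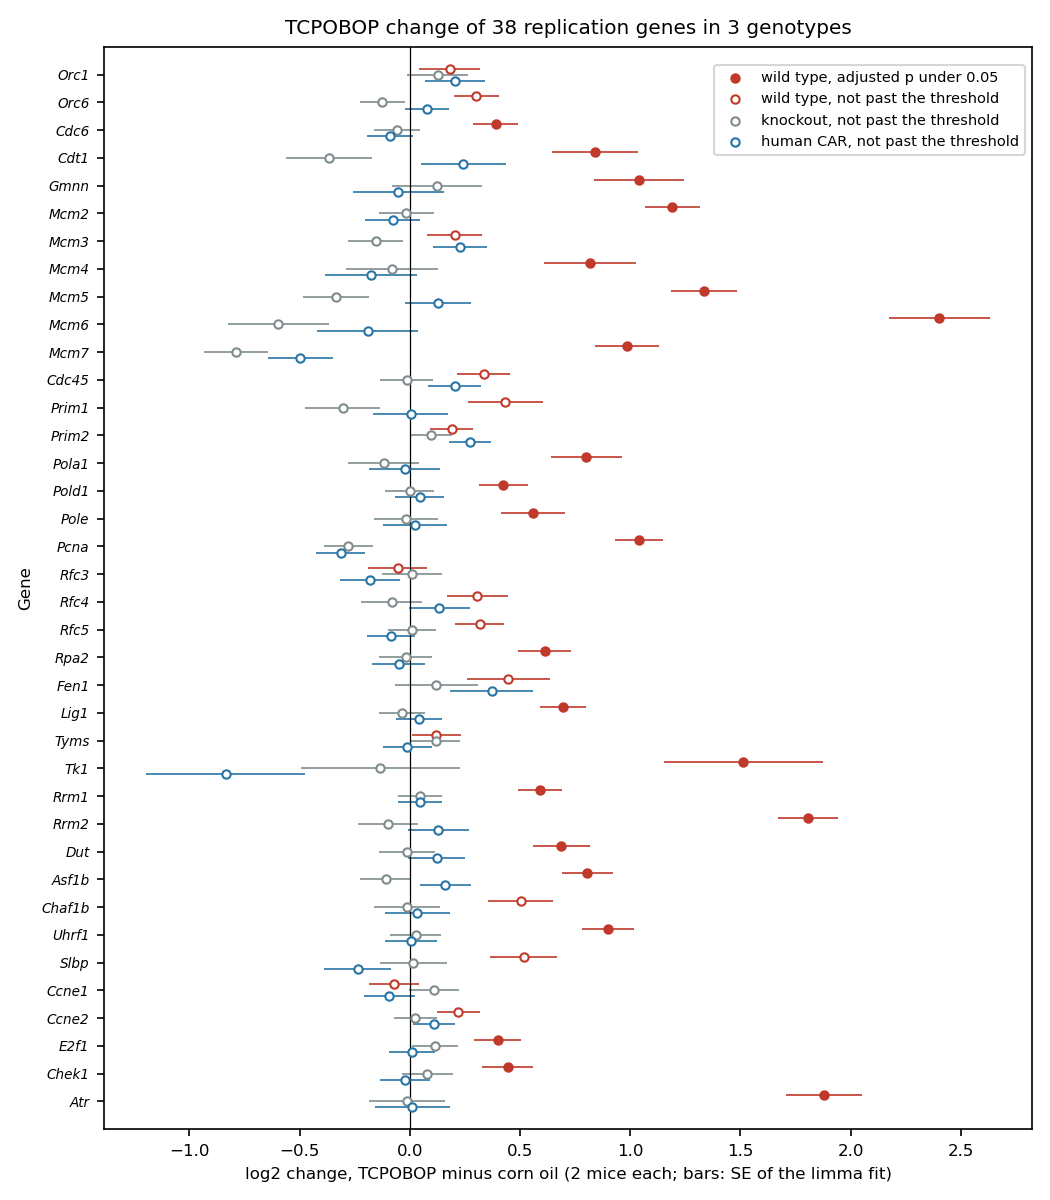
Log2 change with TCPOBOP against corn oil (x axis) of 38 replication genes (y axis) in wild type (red), knockout (grey) and human CAR mice (blue), 2 mice a group, with bars of 1 SE from the limma fit and filled points for adjusted p under 0.05. The 23 filled points are all of wild type, and no point of knockout or human CAR mice is filled.

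The difference between genotypes was tested itself. The TCPOBOP change was larger in wild type than in knockout for 11 of the 38 genes and smaller for 0, against 1.56% of all genes called and 1.07% larger. The 11 were Mcm6, with a difference of changes of 3.00, Rrm2 (1.91), Atr (1.89), Mcm7 (1.77), Mcm5 (1.67), Pcna (1.32), Mcm2 (1.21), Cdt1 (1.21), Asf1b (0.92), Uhrf1 (0.87) and Lig1 (0.73). For Mcm6 the adjusted p was 4.42e-05 and for Rrm2 2.10e-05 (limma). Against human CAR mice the change was larger for 10 genes and smaller for 0, beside 1.44% of all genes called and 0.976% larger. They were Mcm6 (2.59), Tk1 (2.35), Atr (1.87), Rrm2 (1.68), Mcm7 (1.48), Pcna (1.35), Mcm2 (1.27), Mcm5 (1.21), Uhrf1 (0.89) and Lig1 (0.65).

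Both differences use the same 4 wild-type arrays. 9 genes were called in both. Asf1b and Cdt1 were called against knockout alone, and Tk1 against human CAR mice alone. For Tk1 the human CAR livers measured 6.52 and 6.28 with TCPOBOP and 7.59 and 6.88 on corn oil, a change of -0.84 that was not called (adjusted p = 0.752). The calls of Cdt1, Lig1 and Uhrf1 against knockout, and of Lig1, Tk1 and Uhrf1 against human CAR mice, were lost when some of the 8 livers concerned were left out 1 at a time. The remaining 8 and 7 genes held, and Mcm2, Mcm5, Mcm6, Mcm7, Pcna, Rrm2 and Atr were among both. For the other 11 of the 23 genes called in wild type, neither difference was called, which does not show that their changes were alike.

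**Figure D3:**
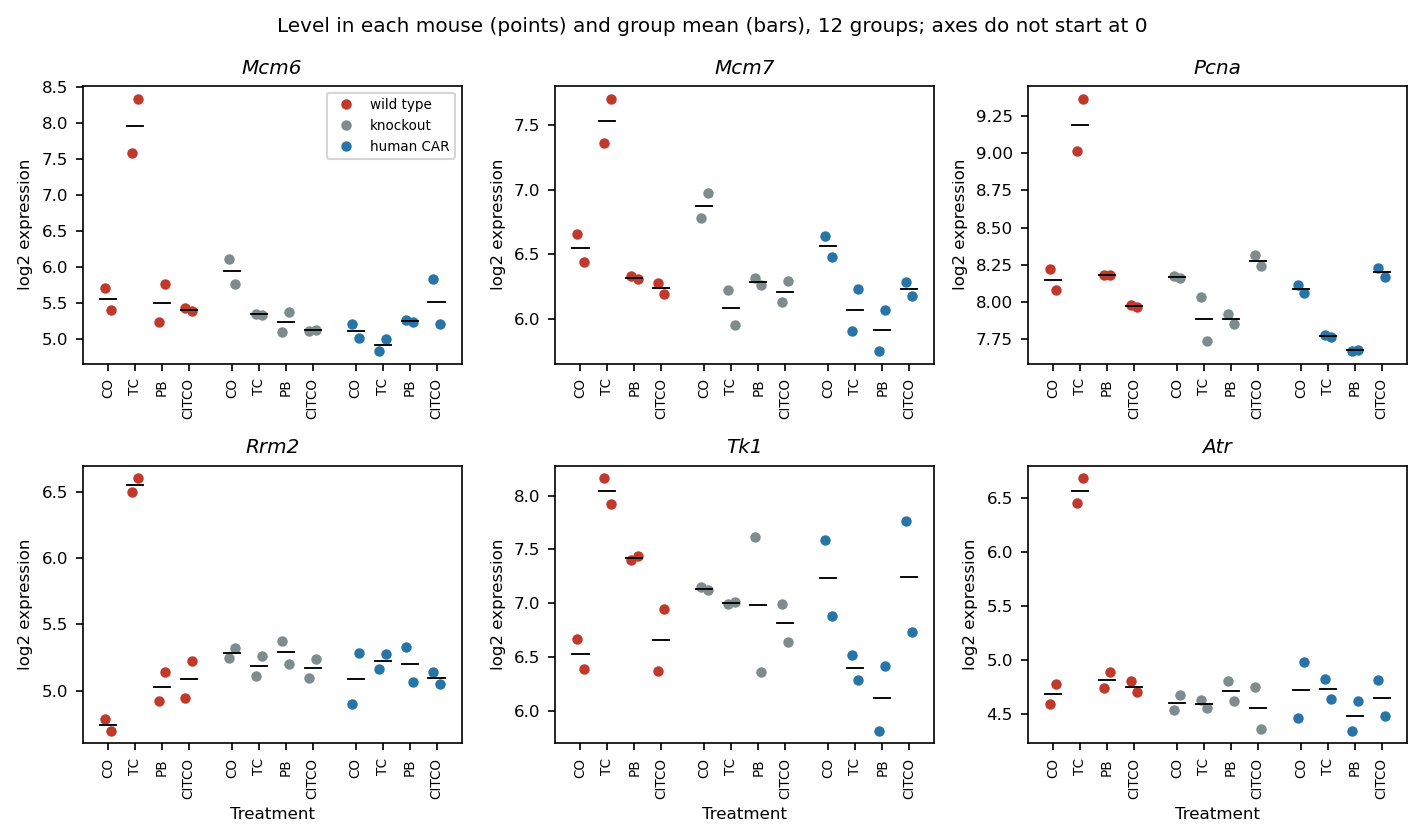
Level of Mcm6, Mcm7, Pcna, Rrm2, Tk1 and Atr (1 panel each, y axis log2 expression not starting at 0) in every mouse of 12 groups (x axis, treatments within genotypes), with a bar at the mean of 2 mice. In each panel both TCPOBOP livers of wild type lie above all other 22 livers, and Tk1 shows the widest spread among the others.

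Phenobarbital in wild type called 0 of the 38 genes, against 1.02% of all genes. At an unadjusted limma p under 0.05, 5 were higher and 1 lower, and 28 of 38 changes were positive with a median of 0.12, beside 0.02 over all genes. Both phenobarbital livers lay above both corn oil livers for 17 genes, against 26.5% of all genes. Prim2 had the smallest p (4.69 and 4.77 against 5.17 and 5.09, a change of 0.40, adjusted p = 0.0614), followed by Asf1b (0.38, adjusted p = 0.160) and Ccne1 (-0.33, adjusted p = 0.231). Tk1 had the largest change, 0.89 (SE 0.36, adjusted p = 0.322), with 7.41 and 7.44 against 6.66 and 6.39. With array weights Prim2 (adjusted p = 0.0291) and Asf1b (adjusted p = 0.0356) were called. The other Prim2 probe set measured, in wild type, 4.45 and 4.40 on corn oil, 4.58 and 4.47 with phenobarbital and 4.39 and 4.42 with CITCO.

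Set directly against each other in wild type, the TCPOBOP livers were higher than the phenobarbital livers in 11 of the 38 genes and lower in 0, against 1.11% of all genes called and 0.799% higher. Both TCPOBOP livers lay above both phenobarbital livers for 33 genes, against 22.4% of all genes. This comparison shares the 2 TCPOBOP arrays with those above. The 11 were Mcm6 (2.46), Atr (1.75), Rrm2 (1.52), Mcm5 (1.23), Mcm7 (1.22), Pcna (1.01), Mcm2 (0.94), Mcm4 (0.91), Uhrf1 (0.67), Rpa2 (0.51) and Rrm1 (0.50). Mcm6 measured 5.24 and 5.76 with phenobarbital, and Atr 4.75 and 4.89, levels that overlapped those of the corn oil livers. Without the first phenobarbital liver, and likewise without the second TCPOBOP liver, 7 genes were called, and Mcm4, Rpa2, Rrm1 and Uhrf1 were those lost with 1 or another liver left out. For Tk1 the 2 ligands differed by 0.62 (SE 0.36), which was not called. Cyp2b10 and Gadd45b, a CAR-responsive growth gene, differed between these 2 ligands by 0.38 and 0.15, with adjusted p of 0.929 and 0.975.

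CITCO called 0 of the 38 genes in any genotype: in wild type against 0.0242% of all genes, in knockout against 0.0323% and in human CAR mice against 0.0646%. Cyp2b10 rose with CITCO in human CAR mice and also in wild type. In human CAR mice 3 of the 38 were higher and 2 lower at an unadjusted limma p under 0.05, and the median change was 0.03. The smallest p were those of Mcm3 (0.39, adjusted p = 0.452), Rfc3 (-0.36, adjusted p = 0.579) and Orc6 (0.27, adjusted p = 0.579). Gmnn changed by 0.53 there, but 1 liver measured 5.65 and the other 4.83. In wild type 3 were higher and 3 lower before adjustment, with Prim2 (0.40, adjusted p = 0.382), Mcm3 (-0.34) and Ccne1 (-0.30) first. In knockout 0 were higher and 5 lower, with Mcm7 (-0.66, adjusted p = 0.153), Mcm6 (-0.82) and Lig1 (-0.30) first.

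Phenobarbital called 0 of the 38 in knockout, against 0.799% of all genes, and 0 in human CAR mice, against 0.468%. At an unadjusted limma p under 0.05, 1 was higher and 6 lower in knockout, and 3 higher and 3 lower in human CAR mice. The smallest p in knockout were those of Mcm7 (-0.58, adjusted p = 0.0690), Mcm6 (-0.70, adjusted p = 0.118) and Prim1 (-0.51, adjusted p = 0.120). In human CAR mice they were those of Mcm7 (-0.65, adjusted p = 0.0582), Pcna (-0.41, adjusted p = 0.0847) and Prim2 (0.32, adjusted p = 0.118). Without the 2 arrays that stand apart 0 were called in both. Tk1 in human CAR mice measured 5.82 and 6.42 with phenobarbital and 7.59 and 6.88 on corn oil, a change of -1.12 that was not called (adjusted p = 0.131).

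Mcm7 thus had the smallest p of the 38 genes in all 3 ligand comparisons of knockout and in 2 of the 3 of human CAR mice, each time with a lower level under the ligand. The 3 comparisons within a genotype share its 2 corn oil livers, which in knockout measured 6.78 and 6.97 and in human CAR mice 6.65 and 6.48. The 12 ligand-treated livers of these genotypes measured between 5.75 and 6.32. None of these 6 changes was called in the fit used here. That of TCPOBOP in knockout was called without the 2 arrays that stand apart (adjusted p = 0.0282). That of phenobarbital in human CAR mice was called without its second liver (adjusted p = 0.00564), where its only array left is one of those 2, and the change was -0.49 and not called without that array. In wild type Mcm7 changed by -0.23 with phenobarbital and -0.31 with CITCO, neither called.

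The lower Mcm7 levels depend in part on the probe set. On a second one human CAR livers measured 6.20 and 6.23 on corn oil and 6.18 and 6.30 with TCPOBOP. On another, knockout livers measured 6.15 and 6.14 on corn oil and 6.13 and 6.36 with phenobarbital. Neither of these comparisons shows the fall seen on the chosen probe set. In human CAR livers, however, the second was lower with phenobarbital (5.98 and 5.99) and CITCO (5.97 and 6.01). The remaining probe sets of Mcm7 were lower there with all 3 ligands. With TCPOBOP in knockout every other Mcm7 probe set was lower too. The second measured 6.56 and 6.73 on corn oil and 6.19 and 6.06 with TCPOBOP. The next went from 6.15 and 6.14 to 5.95 and 5.95, and the last from 4.64 and 4.74 to 4.23 and 4.39. In knockout the second was also lower with phenobarbital (6.44 and 6.32) and CITCO (6.28 and 6.25). The Kupffer cell markers were lower in the same 3 ligand comparisons of knockout, as given with the markers at the end, and their part in the lower Mcm7, Mcm6 and Pcna levels was not tested.

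**Figure D4:**
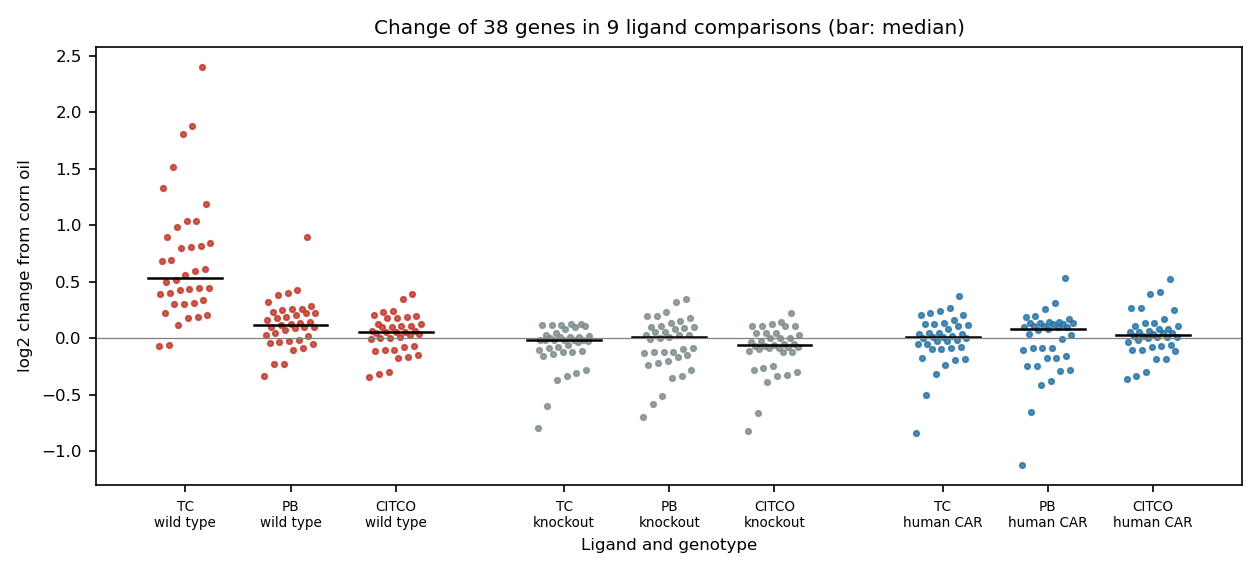
Log2 change from corn oil (y axis) of 38 replication genes (points) in 9 comparisons (x axis: TC TCPOBOP, PB phenobarbital, and CITCO, in wild type, knockout and human CAR mice), with a bar at the median. The median is 0.54 for TCPOBOP in wild type and between -0.06 and 0.12 in the other 8 comparisons, where the sign for phenobarbital in knockout and for phenobarbital and TCPOBOP in human CAR mice changes with the processing.

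On corn oil the genotypes did not differ past the threshold in any of the 38 genes. Knockout against wild type called 0, beside 0.194% of all genes, with 5 higher and 1 lower at an unadjusted limma p under 0.05. Rrm2 (0.54, adjusted p = 0.257), Cdt1 (0.69, adjusted p = 0.336) and Lig1 (0.35, adjusted p = 0.404) had the smallest p, all higher in knockout. Rrm2 measured 5.24 and 5.32 in knockout livers and 4.78 and 4.70 in wild type. Human CAR against wild type called 0, beside 0.0323% of all genes, with 1 higher and 2 lower before adjustment (limma p under 0.05), Mcm3 (-0.32, adjusted p = 0.578), Rrm2 (0.35, adjusted p = 0.578) and Ccne1 (-0.26, adjusted p = 0.626) first. On the chosen probe set wild-type corn oil livers held the lowest Rrm2 levels of the 24. On each of the other Rrm2 probe sets a human CAR corn oil liver was lower than both of them.

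Differences of the other ligand changes between genotypes called 0 of the 38. For phenobarbital in wild type against knockout (0.121% of all genes called), 6 differences were positive and 1 negative at an unadjusted limma p under 0.05, with Rfc5 (0.51, adjusted p = 0.341), Asf1b (0.51) and Ccne1 (-0.43) first. For phenobarbital in human CAR mice against knockout (0.00807% called), 3 were positive and 0 negative, with Prim1 (0.64, adjusted p = 0.547), Mcm6 (0.84) and Mcm5 (0.54) first. For CITCO in human CAR mice against knockout (0.0242% called), 5 were positive and 0 negative, with Mcm6 (1.23, adjusted p = 0.362), Orc6 (0.53) and Mcm3 (0.63) first. Another 4 differences, added after the data were seen, also called 0: TCPOBOP in human CAR mice against knockout, phenobarbital and CITCO in wild type against human CAR mice, and CITCO in wild type against knockout. Among them 2 to 5 of the 38 genes had an unadjusted limma p under 0.05, and the smallest adjusted p was 0.180, for Tk1 with phenobarbital (a difference of 2.02).

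Other genes of the same pathway were read beside the 38 in the TCPOBOP comparison of wild type. Of 39 other replication genes, such as further subunits of the same complexes, 5 were called higher and 0 lower, with a median change of 0.09. They were Timeless (0.69, adjusted p = 0.00639) and its partner Tipin (0.58, adjusted p = 0.00848), which protect the fork, the kinase subunit Dbf4 (0.68, adjusted p = 0.00243), the chromatin remodeller Hells (0.67, adjusted p = 0.00550) and the polymerase delta subunit Pold3 (0.41, adjusted p = 0.0127). Of 31 genes of G1 to S control 4 were called higher and 0 lower. Ccna2, the cyclin of S phase, rose by 1.40 (adjusted p = 0.000117), the pocket protein Rbl1 by 0.76 (adjusted p = 0.000408), and the CDK4 and CDK6 inhibitors Cdkn2c and Cdkn2d by 0.89 (adjusted p = 0.0309) and 0.68 (adjusted p = 0.0130).

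Genes of G2 and mitosis moved in the same comparison: 15 of 24 were called higher and 0 lower, with a median of 0.63. Birc5 (1.94), Ccnb2 (1.90), Mki67 (1.87), Cdk1 (1.83), Ube2c (1.59) and Ttk (1.25) rose most. With phenobarbital in wild type 4 of these 24 were called higher, Ube2c (0.72), Cdk1 (0.70), Ccnb2 (0.66) and Ttk (0.59), whereas 0 of the 38 replication genes, 0 of the 39 other replication genes and 0 of the 31 of G1 to S control were. At an unadjusted limma p under 0.05 these phenobarbital counts were 7 higher and 0 lower for G2 and mitosis, 5 and 1 for the 38 genes, 1 and 3 for the other replication genes, and 2 and 1 for G1 to S control. Whether phenobarbital moved the G2 and mitosis genes more than the replication genes was not tested.

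Markers of the cell types of liver were read alongside. With TCPOBOP in wild type 0 were called of 7 hepatocyte, 10 Kupffer cell, 8 endothelial, 7 stellate, 4 cholangiocyte, 8 lymphocyte and 5 erythroid markers, and 1 of 6 neutrophil markers was, Mpo, by 0.52 (adjusted p = 0.0279). Mean levels of the neutrophil markers were 5.37 and 5.46 in corn oil and 5.58 and 5.64 in TCPOBOP livers. Of the 8 lymphocyte markers Cd3g, Cd79b, Ms4a1 and Cd2 were dim in both TCPOBOP livers, and their mean was 4.75 and 4.80 against 4.84 and 4.94. The part of these cells in the rise of the replication genes was not tested.

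The Kupffer cell markers, genes of the resident macrophages of liver, were lower with every ligand in knockout. Their mean level was 8.14 to 8.30 in the knockout corn oil livers, 7.0 to 7.58 with TCPOBOP, 6.65 to 7.41 with phenobarbital and 7.36 to 7.52 with CITCO. All 10 changes were negative in each of these 3 comparisons, with medians of -0.98, -1.27 and -0.76. The called ones numbered 1, 4 and 0, and 9, 10 and 10 were lower at an unadjusted limma p under 0.05. The 3 comparisons share the 2 knockout corn oil livers.

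In wild type their mean level was 7.61 to 8.07 on corn oil, 7.58 to 7.87 with TCPOBOP and 7.26 to 7.39 with phenobarbital. With phenobarbital against corn oil there 10 of 10 were negative, with a median of -0.48 and 0 called, and in TCPOBOP against phenobarbital 10 of 10 were positive, with a median of 0.39 and 0 called. In the difference of TCPOBOP changes between wild type and knockout 10 of 10 were positive, with a median of 0.76 and 1 called. In the difference between wild type and human CAR mice 9 of 10 were negative, with a median of -0.19 and 0 called. For phenobarbital in wild type against knockout, phenobarbital in human CAR mice against knockout and CITCO in human CAR mice against knockout 10 of 10 were positive, with medians of 0.64, 0.91 and 1.12 and 0 called. Their part in those differences of the replication genes was not tested.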

How the data were processed

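The authors deposited log2 values from RMA, with R 2.15.0, per the submitters' processing notes, for 22690 probe sets and 24 arrays of biotin-labelled TRIzol RNA. The lowest value was 2.03 and the highest 14.1, 0 were missing, medians of arrays were 5.41 to 5.51, and nothing was normalised again. RMA sets arrays to one distribution, so a shift of all genes cannot be seen. Of the probe sets, 64 were controls, 20380 had 1 gene symbol, 691 several and 1555 were not listed; 20351 matched by gene ID to RefSeq (GRCm38.p6). Each of 12393 genes kept the probe set with its highest mean, with no filter on low values. The fit (limma 3.58.1, R 4.3.3) had 12 group means, 24 arrays and 12 residual degrees of freedom, with Benjamini-Hochberg adjustment within each of 17 comparisons and a threshold of 0.05; the steps were tested on simulated data. Other steps used pandas 2.3.3, numpy 2.4.6 and, for figures, matplotlib 3.10.9 under Python 3.11.15.

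Genes and lists were chosen with earlier results of these data known, which had shown S phase genes higher with TCPOBOP in wild type. By the naming rule any of the 38 genes may be named: called ones with their values, the 3 smallest p where none was called, and up to 6 called genes of each related list. Further genes named without a call are the other subunits of a complex. Over 276 array pairs at most 0.0485% of values were equal. Replicate numbers were not treated as pairing the mice. Over 66 pairs of groups, same-numbered arrays had correlations of deviations from -0.44 to 0.43 (median 0.04), 18 of them over 0.1. These values cannot exclude a pairing within some groups. The labels state no batches. Alternatives were 2 filters, the mean of probe sets, cyclic loess, median centring, a trended robust prior, array weights, the replicate block, fewer arrays and leaving out each array.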

Additional observations from a re-analysis of the deposited data

Results flagged for a closer look

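The TCPOBOP change differed between genotypes by a test of the difference itself in 21 results, and all 21 share the same 4 wild-type arrays. As wild type minus knockout the differences of log2 changes were 3.00 for Mcm6, 1.91 for Rrm2, 1.89 for Atr, 1.77 for Mcm7, 1.67 for Mcm5, 1.32 for Pcna, 1.21 for Mcm2, 1.21 for Cdt1, 0.92 for Asf1b, 0.87 for Uhrf1 and 0.73 for Lig1. Their limma adjusted p ran from 2.10e-05 to 0.0304. As wild type minus human CAR mice they were 2.59 for Mcm6, 2.35 for Tk1, 1.87 for Atr, 1.68 for Rrm2, 1.48 for Mcm7, 1.35 for Pcna, 1.27 for Mcm2, 1.21 for Mcm5, 0.89 for Uhrf1 and 0.65 for Lig1, with limma adjusted p from 9.76e-05 to 0.0332. In knockout, Mcm6, Mcm7, Mcm5, Pcna and Cdt1 had changes from -0.28 to -0.79 that were not called, so part of their differences lies in those lower levels.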

How the results depend on the processing

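Of the 38 genes, 23 were called with TCPOBOP in wild type. With genes kept by their mean over all arrays 14 entered the fit and 10 were called, and leaving out 1 array gave 11 to 20; other settings stayed within 1.5 times. The difference from knockout called 11 genes, 6 with that filter, 17 with array weights and 9 to 12 with 1 array left out. The difference from human CAR mice called 10, 5 with that filter and 7 to 10 with 1 array left out. TCPOBOP against phenobarbital in wild type called 11, 4 with that filter, 18 with array weights and 7 to 11 with 1 array left out.

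Comparisons with 0 calls gained few. Phenobarbital in wild type had 2 with array weights and 1 in a fit of its 8 arrays. In knockout Mcm7 was the 1 gene called lower, with TCPOBOP under cyclic loess, a trended robust prior, array weights or without the 2 arrays that stand apart, and with phenobarbital under cyclic loess; leaving out 1 array gave 0 with TCPOBOP and 0 to 1 with phenobarbital. CITCO in knockout had 2 with array weights, Mcm7 and Mcm6, both lower. Phenobarbital in human CAR mice had 1 with the mean filter and 1 with median centring, and 0 to 3 with 1 array left out. These phenobarbital calls with 1 array left out came where the liver left is one of the 2 that stand apart. The cause was not tested, beyond fewer genes or arrays in a fit.

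No called count changed direction. The median over the genes, -0.06 to 0.12 outside TCPOBOP in wild type, changed sign with phenobarbital in knockout (0.01, and -0.04 to -0.16 under both filters, the mean of probe sets, cyclic loess and median centring). It did so in human CAR mice with TCPOBOP (0.01, and -0.02 to -0.06 under the mean filter, cyclic loess and median centring) and phenobarbital (0.08, and -0.01 to -0.06 under the mean filter, cyclic loess and without the 2 arrays that stand apart). With the replicate number as a block 23, 11, 10 and 10 genes were called in the 4 comparisons with calls, in the order given, and 0 elsewhere. Dim probe sets and 2 mice a group limit all values.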
